A study of Homo sapiens with 2 samples.

Results

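PDGF and VEGF genes encode 2 related groups of secreted growth factors and the receptor tyrosine kinases that bind PDGF. Counts were examined for 9 genes, the ligands PDGFA, PDGFB, PDGFC, PDGFD, VEGFA, VEGFB and VEGFC and the receptors PDGFRA and PDGFRB, found by Entrez number among 25702 gene features. The genes were selected on the counts of this same comparison, PAX5 against control, so their differences are given as a description, with no test. RNA was sequenced from REH, an established human line of B-cell acute lymphoblastic leukaemia that carries the ETV6-RUNX1 fusion and is labelled REH-R in these samples. The PAX5 library came from cells with a tetracycline-regulated cassette for PAX5, an IRES (internal ribosome entry site) and GFP. The control library came from cells whose regulated cassette held only the IRES and GFP. Both cultures grew in RPMI with 20% serum, both were given doxycycline (1 µg/mL, 3 days), and GFP-positive cells of each were sorted. Each group is a single library without replicates, and the labels do not say whether either line was 1 clone.

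PDGF ligands are dimers that bind PDGFRA and PDGFRB, kinases of the class III family best known for driving the growth and migration of fibroblasts, smooth muscle cells and pericytes. VEGF ligands bind the receptors FLT1, KDR and FLT4, with neuropilins as co-receptors, and are known above all for the growth of blood and lymph vessels. Leukaemic B-cell precursors can secrete VEGFA, and fusions that activate PDGFRB occur in some B-cell leukaemias.

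Library totals were 11944765 counts for PAX5 and 10997864 counts for control. PAX5 itself had 8319 counts in the PAX5 library, against 2660 in the control library, 2.91-fold (2.78 to 3.04), and its counts hold cassette and endogenous transcript together. Levels are given as CPM (counts per 1000000 after TMM scaling) or, between genes, as RPKM (CPM per 1000 bases of the length listed in the files). Intervals are exact 95% intervals that cover counting error only and compare these 2 libraries, not the conditions. The term called is used of a gene with at least 10 summed counts whose interval lies wholly past 2-fold, on the higher or the lower side. Of 13532 features with at least 10 counts, this rule called 1.34% higher and 0.0517% lower, while 18.7% had a log2 interval wholly above 0 and 16.8% wholly below. In bulk RNA, fewer cells with a transcript and less transcript per cell cannot be told apart. Of 10 B-cell precursor markers all had at least 10 counts in total and none was called, and RAG1, DNTT and IGLL1 led them at 415, 792.0 and 510.2 RPKM in the PAX5 library, against 442, 904.0 and 609.0 RPKM in the control library.

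Of the 9 genes, 5 reached 10 counts and 1 of them, PDGFA, was called higher, with none called lower. VEGFA, VEGFB and PDGFRB were well counted in both libraries and differed little. PDGFRA was weakly counted, PDGFB had 2 counts in all, and PDGFC, PDGFD and VEGFC had none. The median log2 ratio of the 5 counted genes was 0.12, beside -0.01 over all features tested, so the family did not share the ratio of PDGFA.

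**Figure D1:**
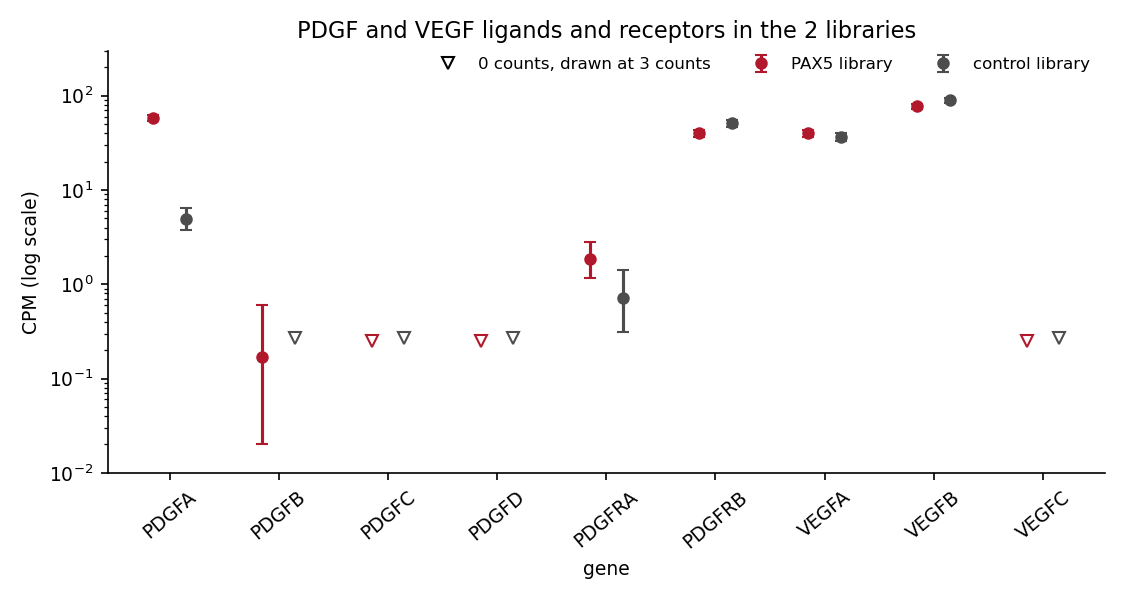
CPM of the 9 genes (log scale) in the PAX5 library (red) and the control library (grey), with exact 95% Poisson intervals, and open triangles for 0 counts drawn at the level of 3 counts. PDGFA lies at 57.5 CPM in the PAX5 library, against 4.98 CPM in the control library, while the points of VEGFA, VEGFB and PDGFRB lie close together.

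PDGFA (Entrez 5154, chromosome 7) encodes the PDGF A chain, whose homodimer PDGF-AA binds PDGFRA. It had 684 counts in the PAX5 library (57.5 CPM, 53.3 to 62.0) and 55 counts in the control library (4.98 CPM, 3.75 to 6.48). The PAX5 library was the higher one and the intervals lay far apart. The ratio was 11.6-fold (8.77 to 15.5), which is a log2 ratio of 3.53 (3.13 to 3.95). Its lower bound ranked 34 among features above the control library, ahead of PAX5 itself at rank 111. By RPKM, PDGFA stood at percentile 84.1 of all features in the PAX5 library, against percentile 58.4 in the control library. PDGFA transcript was thus well detected in the control library too.

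**Figure D2:**
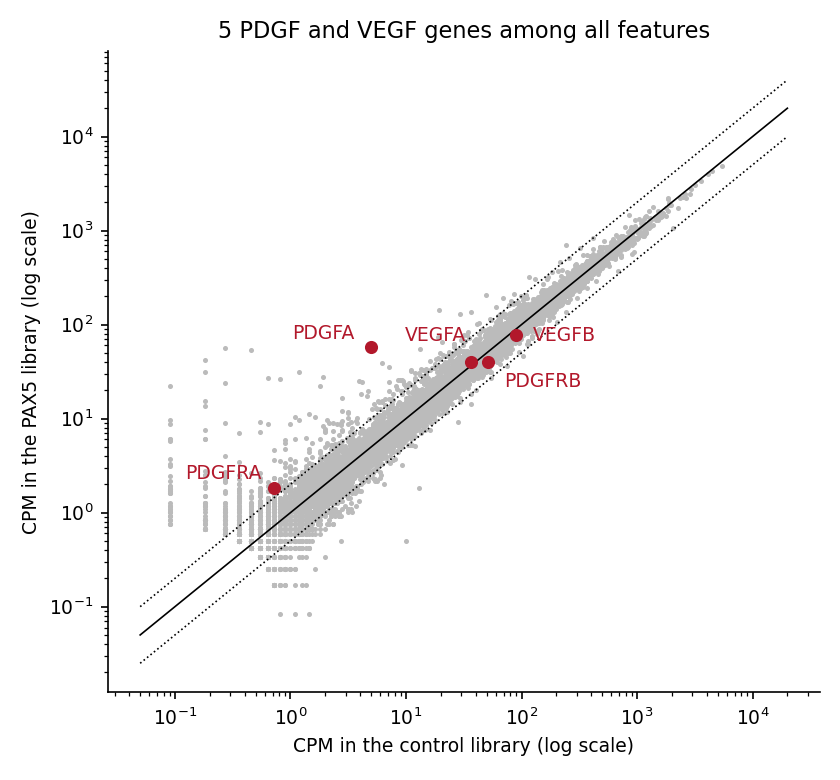
CPM in the PAX5 library (vertical) against CPM in the control library (horizontal), both on log scales, for features with at least 10 summed counts and counts in both libraries. The solid line marks equal levels and the dotted lines 2-fold differences. PDGFA lies well above the upper dotted line at 11.6-fold, while VEGFA, VEGFB and PDGFRB lie between the lines.

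The 3 features whose levels in the libraries were nearest to those of PDGFA, by distance between log2(CPM + 0.1) values over the 2 libraries, were KLHL14, LARGE2 and ID2. KLHL14, an adaptor of a ubiquitin ligase, had 463 counts in the PAX5 library, against 69 in the control library, at a distance of 0.647. LARGE2, a glycosyltransferase that acts on dystroglycan, had 423 and 78 counts in the same order of libraries, at a distance of 0.851. ID2, an inhibitor of E-protein binding to DNA, had 302 counts in the PAX5 library, against 43 in the control library, at a distance of 1.23. These distances exceed those of the nearest features of the other counted genes, none of which was over 0.13, so few features lay close to PDGFA.

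The promoter windows of PDGFA and VEGFB are shown because these are the gene with the largest ratio and the gene with the highest level among the 9. The sequences are from RefSeq (GRCh38.p14), run from 250 bases before to 50 bases after the annotated start, and are written 5′ to 3′ on the strand of the gene. Capitals mark GGGCGG, the GC box bound by SP1, on either strand (CCGCCC on the other).
PDGFA (chr7:520177-520476, minus strand): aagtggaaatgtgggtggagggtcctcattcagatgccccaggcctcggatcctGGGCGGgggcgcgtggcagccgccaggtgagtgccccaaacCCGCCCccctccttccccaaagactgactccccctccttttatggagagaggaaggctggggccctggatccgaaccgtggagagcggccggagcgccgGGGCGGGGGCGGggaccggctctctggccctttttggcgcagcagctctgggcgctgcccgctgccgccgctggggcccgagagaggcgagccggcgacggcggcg
VEGFB (chr11:64234334-64234633, plus strand): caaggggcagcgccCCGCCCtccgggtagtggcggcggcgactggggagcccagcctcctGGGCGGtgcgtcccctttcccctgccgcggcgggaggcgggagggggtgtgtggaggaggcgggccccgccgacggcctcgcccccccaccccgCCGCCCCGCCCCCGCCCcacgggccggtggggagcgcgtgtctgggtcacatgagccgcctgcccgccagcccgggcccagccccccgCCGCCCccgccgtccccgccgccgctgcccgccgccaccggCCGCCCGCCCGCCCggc
The PDGFA window held 4 GC boxes and the VEGFB window 9, counting overlapping matches, beside 45.0% of 35116 windows of the same length with at least 1. The G and C content was 71.7% for PDGFA and 84.7% for VEGFB, against a median of 58.7% over all windows. The EGR-type site GCGNGGGCG, which overlaps the GC box, matched at 2 places in each window and at 1 or more in 9.43% of all windows. Neither window held GCGTGAC, a stretch of the PAX5 consensus (2.52% of windows), or ACGTG, the core of the hypoxia response element (21.4% of windows), on either strand. Windows were found for 6 of the 9 genes, and PDGFRA, at 47.0% G and C, had no GC box. These matches describe letters in a short window, and nothing about binding was measured.

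Around PDGFA, the features next to it by order on the chromosome were looked up after the values of PDGFA were known. LOC442497, the nearest counted feature on one side and a long noncoding RNA gene, had 23 counts in the PAX5 library, against 1 in the control library, a log2 ratio of 4.42 (1.80 to 9.78), and was called higher too. Beyond it, FAM20C, a kinase of secreted proteins, had 114 and 154 counts in PAX5 and control, a log2 ratio of -0.54 (-0.90 to -0.18). On the other side, PRKAR1B, a regulatory subunit of protein kinase A, had a log2 ratio of 0.16 and the dynein assembly factor gene DNAAF5 of 0.15, both with intervals that include 0. SUN1, a nuclear envelope gene, had a log2 ratio of 0.46 (0.33 to 0.59). Of 5 counted neighbours, LOC442497 was the one past the rule, beside 1.34% of all features tested that were called higher. PDGFA-DT, a divergent transcript that overlaps PDGFA in GRCh38.p14, had 2 counts in the PAX5 library, against 1 in the control library. Since the strand setting of the counting is not given in the sources used here, reads of PDGFA and PDGFA-DT cannot be told apart where they overlap.

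The other PDGF ligands were at or near 0. PDGFB, the B chain, whose homodimer binds both receptors and recruits pericytes to vessels, had 2 counts in the PAX5 library, against 0 in the control library, both under the floor of 3 counts, so no ratio is given. PDGFC and PDGFD, which are secreted as latent proteins and activated by proteases, had 0 counts in both libraries. The floor of 3 counts, a one-sided limit for a count of 0 and lower than the upper end of the exact interval, is 0.252 CPM for PAX5 cells and 0.272 CPM for control cells. Per length, PDGFA made up 99.8% of the summed PDGF ligand RPKM in the PAX5 library (exact binomial interval 99.1 to 100.0) and 100.0% in the control library (93.5 to 100.0). The summed PDGF ligand level was 20.5 RPKM in the PAX5 library, against 1.77 RPKM in the control library, and it was almost wholly that of PDGFA in each.

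The 2 PDGF receptors differed from each other in level. PDGFRA (Entrez 5156), which binds PDGF-AA, PDGF-BB and PDGF-CC, had 22 counts in the PAX5 library (1.85 CPM, 1.16 to 2.80) and 8 in the control library (0.724 CPM, 0.313 to 1.43). Its intervals overlapped between the libraries. The ratio was 2.56-fold (1.10 to 6.64), with a log2 interval of 0.13 to 2.73 that lies above 0, and it was not called because the bound lies under 2-fold. By a ratio at or over 2-fold without regard to its interval, which 4.04% of features passed on the higher side, PDGFRA would count as higher. PDGFRB (Entrez 5159), which binds PDGF-BB and PDGF-DD, had 473 counts in the PAX5 library (39.8 CPM, 36.3 to 43.5) and 563 in the control library (51.0 CPM, 46.8 to 55.3). The CPM intervals did not overlap. The log2 ratio was -0.36 (-0.54 to -0.18), within 2-fold, and PDGFRB was not called.

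PDGFRB made up 96.1% of the summed PDGF receptor RPKM in the PAX5 library, against 98.8% in the control library. The receptor with which PDGF-AA signals was therefore the minor one in both, at 0.282 RPKM in the PAX5 library, against 0.110 RPKM in the control library. These levels stood at percentiles 48.1 and 44.3 of all features in PAX5 and control. The main receptor transcript, PDGFRB, stood at 6.96 RPKM in the PAX5 library, against 8.92 RPKM in the control library.

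Ratios between genes within a library do not depend on how the libraries are scaled, though a trend with gene length can move them. Per length, PDGFA was 2.94 times the level of PDGFRB in the PAX5 library, against 0.199 times in the control library. The ratio of these ratios was 14.8 (exact interval 10.9 to 20.4). Against PDGFRA, the receptor of PDGF-AA, PDGFA stood at 72.8 times the level in the PAX5 library, against 16.1 times in the control library, a ratio of 4.52 with a wide interval of 1.66 to 11.1. PDGFRA stood at 0.0404 times PDGFRB in the PAX5 library, against 0.0124 times in the control library, a ratio of 3.27 (1.39 to 8.58). The wide intervals of the last pairs come from the 30 PDGFRA counts in all.

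The receptor genes lie in clusters of related kinases. PDGFRA is followed on chromosome 4 by KIT, the stem cell factor receptor, and KDR, and PDGFRB adjoins CSF1R, the macrophage growth factor receptor, on chromosome 5. KIT had 70 counts in the PAX5 library, against 51 in the control library, and a log2 ratio of 0.35 (-0.19 to 0.90). CSF1R had 14 counts in the PAX5 library, against 41 in the control library, -1.66 on the log2 scale (-2.65 to -0.75). FLT3, another class III receptor and the most abundant of them here, had 45.9 RPKM in the PAX5 library, against 60.4 RPKM in the control library, with a log2 ratio of -0.40 (-0.48 to -0.31). None of these 3 was called, and 2 of them had intervals below 0, beside 16.8% of all features tested.

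**Figure D3:**
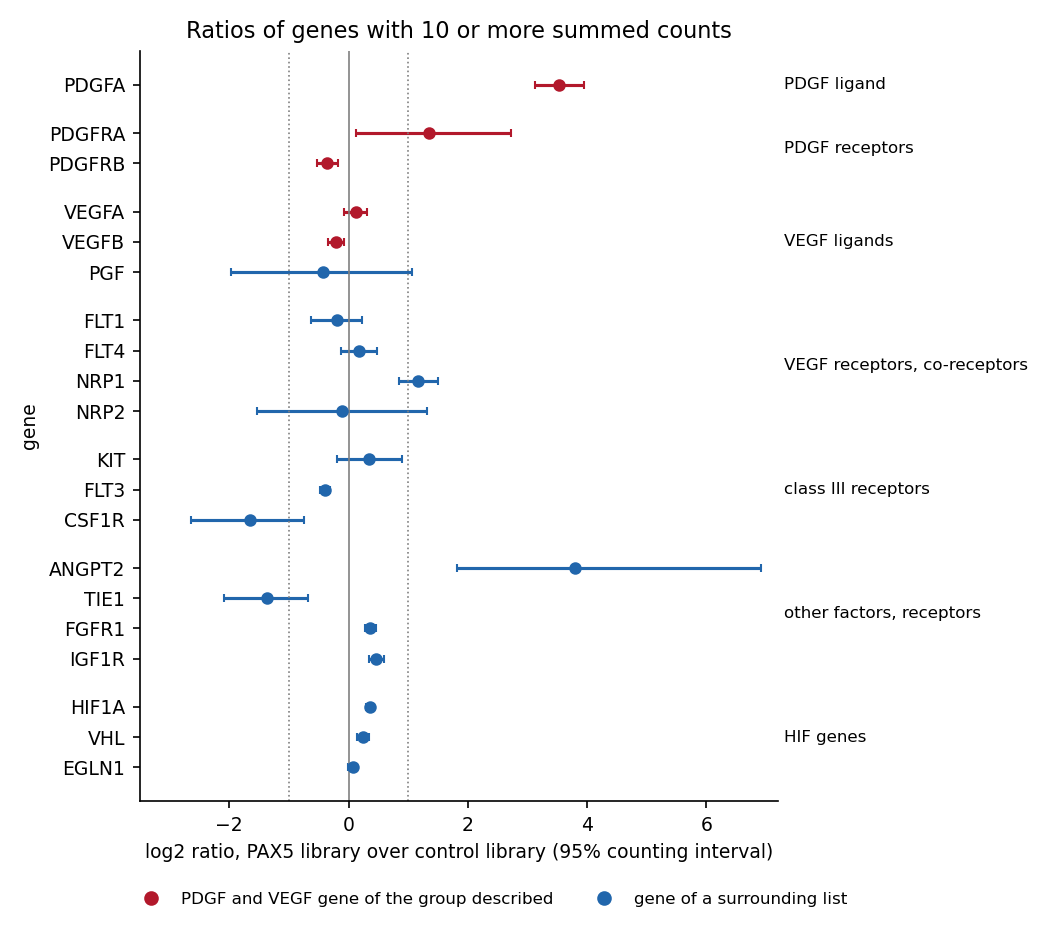
Log2 ratios (PAX5 library over control library) with exact 95% counting intervals, for the 5 counted PDGF and VEGF genes (red) and genes of the surrounding lists (blue). Dotted lines mark 2-fold. PDGFA (3.53) and ANGPT2 (3.80) have intervals wholly beyond the right dotted line, and the other intervals reach inside the lines.

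VEGF ligands were at similar levels in the libraries. VEGFA (Entrez 7422), the main driver of vessel growth and a target of hypoxia signalling, had 474 counts in the PAX5 library (39.9 CPM, 36.4 to 43.6) and 405 in the control library (36.7 CPM, 33.2 to 40.4). The CPM intervals overlapped. Its ratio was 1.09-fold (0.951 to 1.25), with a log2 interval of -0.07 to 0.32 that includes 0. VEGFB (Entrez 7423), a ligand of FLT1 best known for roles in heart and fatty acid uptake, had 918 counts in the PAX5 library (77.2 CPM, 72.3 to 82.4) and 988 in the control library (89.4 CPM, 83.9 to 95.2). Its CPM intervals did not overlap, and its log2 ratio of -0.21 (-0.34 to -0.08) lay within 2-fold and was not called. VEGFC, the lymphatic ligand of FLT4, was at 0 in both libraries, where 3 counts equal 0.121 RPKM in the PAX5 library, against 0.131 RPKM in the control library.

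VEGFB led the 9 genes in both libraries by CPM and, with a wider lead, per length, at 69.1 RPKM in the PAX5 library, against 80.0 RPKM in the control library. It made up 86.4% of the summed VEGF ligand RPKM in the PAX5 library (85.0 to 87.7) and 88.9% in the control library (87.7 to 90.0). VEGFA made up the other 13.6% in the PAX5 library, against 11.1% in the control library. VEGFA stood at 0.158 times VEGFB in the PAX5 library, against 0.125 times in the control library, a ratio of 1.26 (1.07 to 1.48). After each gene was centred on features of like length, that ratio was 1.07, just under this interval, and the interval does not cover the trend with length.

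PDGFA changed place in the order of levels. In the PAX5 library the order by RPKM was VEGFB, PDGFA (20.5), VEGFA (10.9), PDGFRB (6.96) and PDGFRA, with no overlap of intervals between neighbours down to PDGFRA. In the control library it was VEGFB, VEGFA (10.01), PDGFRB (8.92), PDGFA (1.77) and PDGFRA, and the intervals of VEGFA and PDGFRB overlapped. From PDGFRA down through PDGFB and the 3 genes at 0, neighbours in the order had overlapping intervals in both libraries. PDGFA stood at 1.88 times VEGFA in the PAX5 library, against 0.177 times in the control library. Over all 7 ligands, PDGFA made up 20.4% of the summed RPKM in the PAX5 library, against 1.93% in the control library, while VEGFA made up 10.8% and 10.9% in PAX5 and control.

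**Figure D4:**
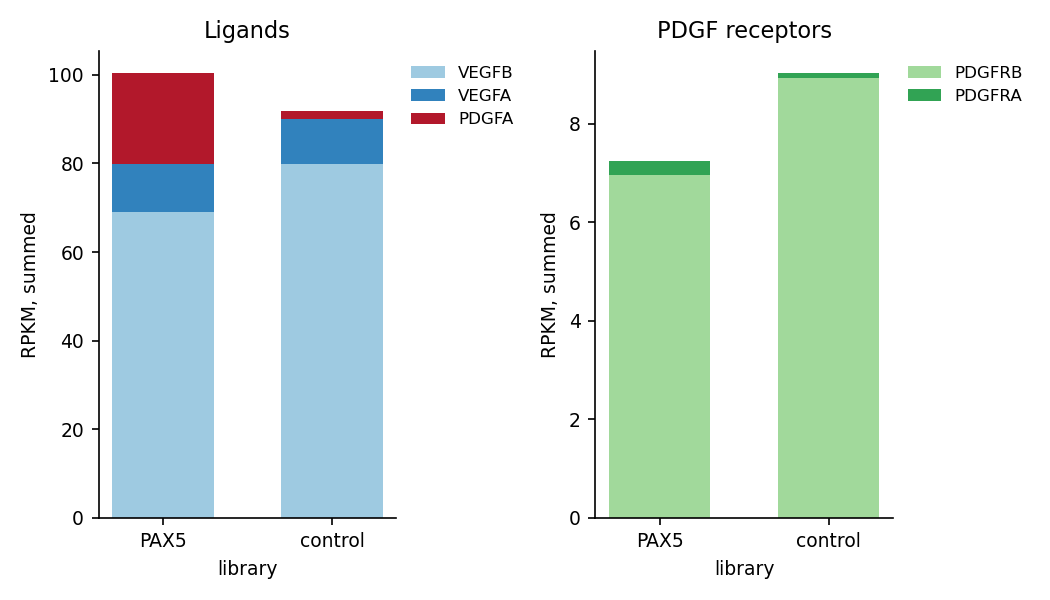
Summed RPKM of the ligands VEGFB, VEGFA and PDGFA (left) and of the receptors PDGFRB and PDGFRA (right), with the PAX5 library left of the control library in each panel. PDGFA fills 20.5 RPKM of the ligand bar in the PAX5 library, against 1.77 RPKM in the control library, and PDGFRB fills nearly the whole receptor bar in both.

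The ratio between the libraries went with gene length across all features, so each gene was also set against features of like length. Over features with at least 100 counts in 10 bins of length, the median log2 ratio was -0.20 in the shortest bin (median 942 bases) and 0.19 in the longest (median 8295 bases). VEGFB, listed at 1118 bases, lies in the shortest bin, and its log2 ratio less the median of that bin was -0.01. PDGFRB, listed at 5714 bases, was at -0.46 after the same subtraction, further from 0 than its log2 ratio of -0.36. PDGFA was at 3.56, VEGFA at 0.08 and PDGFRA at 1.25. The 6 nearest counted neighbours of VEGFB on chromosome 11 also had log2 ratios below 0, between -0.39 and -0.20. Of these, 5 are short genes too, listed at 935 to 1285 bases, and PLCB3, listed at 5728 bases, was at -0.27. The 6 nearest counted neighbours of VEGFA were below 0 too, between -0.97 and -0.12, while VEGFA was at 0.12 before the subtraction.

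**Figure D5:**
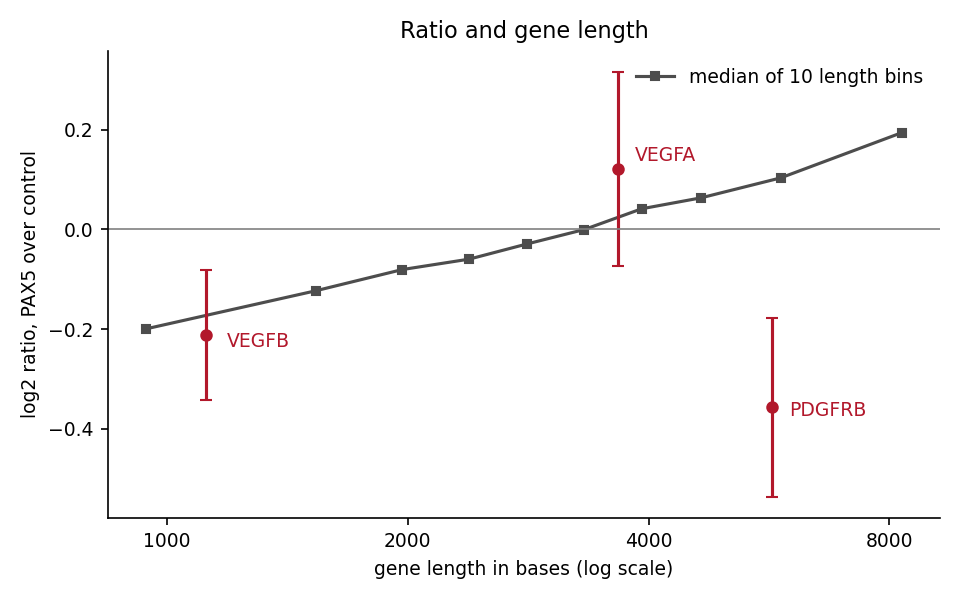
Log2 ratio (PAX5 over control) against gene length in bases (log scale): squares are medians of 10 length bins and red points are VEGFB, VEGFA and PDGFRB with 95% counting intervals. VEGFB (-0.21) lies at the median of the short genes, and PDGFRB (-0.36) lies below the median of genes of its length.

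The receptors that VEGF ligands bind were weakly to moderately counted. FLT4, the receptor of VEGFC, had 215 counts in the PAX5 library, against 177 in the control library, with a log2 ratio of 0.17 (-0.12 to 0.47). FLT1, which binds VEGFA and VEGFB, had 90 and 96 counts in PAX5 and control (-0.63 to 0.23 on the log2 scale), and KDR, the main signalling receptor of VEGFA on endothelium, had 1 and 0. NRP1, a co-receptor that also binds semaphorins, had 283 counts in the PAX5 library, against 117 in the control library, 2.25-fold (1.81 to 2.81), and was not called since its bound lies under 2-fold. NRP2 had 10 counts in each library. Of 5 genes 4 were counted, 0 were called and 1 had an interval above 0, beside 18.7% of all features tested. Their median log2 ratio was 0.03. Of the ligands outside the 9, PGF had 8 counts in the PAX5 library, against 10 in the control library, and VEGFD had 0 in both.

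Other genes of the pathways were mostly at like levels. Of 13 genes for ligand processing and matrix binding, 9 were counted and 0 called (median log2 ratio 0.07). The 3 highest, FURIN (a protease that cleaves PDGF and VEGF precursors), HSPG2 and PCSK7, had log2 ratios of -0.01, 0.07 and -0.14. SPARC had the 1 interval below 0, at -1.34 (-2.04 to -0.68), and none lay above. Of 28 receptor-proximal signalling genes, 27 were counted and 0 called, with 13 intervals above 0, 2 below and a median of 0.07. Over all features tested, 18.7% of intervals lay above 0 and 16.8% below. Those intervals do not take out the trend with gene length. Less the median of features of like length, the 3 genes highest by RPKM, CRKL, PLCG2 and PIK3CD, were at 0.03, 0.17 and 0.01. Among the counted genes of the list such values ran from -0.74 to 0.64. The intervals were not counted again after this subtraction, so the part of gene length in these counts was not tested. The highest were the adaptor CRKL at 63.5 RPKM in the PAX5 library, against 57.9 RPKM in the control library, the phospholipase PLCG2 at 63.5 RPKM in the PAX5 library, against 54.7 RPKM in the control library, and the kinase subunit PIK3CD. Of 8 HIF oxygen-sensing genes, 7 were counted and 0 called, with 3 intervals above 0, 1 below and a median of 0.16. HIF1A, the hypoxia factor that acts on VEGFA, had 4181 counts in the PAX5 library, against 3025 in the control library, 0.36 on the log2 scale (0.29 to 0.43), VHL had a log2 ratio of 0.25 and EGLN1 of 0.07.

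Among 16 other growth factors and receptors, 6 were counted and ANGPT2 was called higher, beside 1.34% of all features tested. That call was lost with a minimum of 50 counts or a bound at 4-fold. ANGPT2, a context-dependent antagonist of the TEK receptor in vessel remodelling, had 30 counts in the PAX5 library, against 2 in the control library, 13.9-fold (3.54 to 120.4). Its receptor TEK had 0 counts in both libraries. TIE1, a TEK-related receptor, had 26 counts in the PAX5 library, against 62 in the control library, with a log2 ratio of -1.36 (-2.08 to -0.68). FGFR1 and IGF1R had log2 ratios of 0.37 and 0.46, with intervals above 0, and neither was called.

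Markers of the cell types in which PDGF and VEGF genes are best known were low. Of 8 endothelial markers 4 were counted, with summed levels of 13.6 CPM in the PAX5 library, against 8.33 CPM in the control library. CDH5 and TEK had 0 counts in both libraries, PECAM1 and EMCN had 0 in the PAX5 library, against 1 each in the control library, and VWF had 7 in each. ESAM, a junction adhesion molecule on the same list, was called higher, as were 1.34% of all features tested. It had 116 counts in the PAX5 library, against 13 in the control library, 8.29-fold (4.66 to 16.0). CLDN5 had 13 and 8 counts in PAX5 and control. TIE1, also on this list, went the other way, with 26 counts in the PAX5 library, against 62 in the control library. Its log2 ratio was -1.36 (-2.08 to -0.68), and it was not called. Of 10 fibroblast and mural markers 4 were counted and 0 called, with summed levels of 19.5 CPM in the PAX5 library, against 15.9 CPM in the control library. COL1A1, RGS5 and ACTA2 led them at 115, 67 and 34 counts in the PAX5 library, against 93, 48 and 24 in the control library, TAGLN had 9 and 7 in PAX5 and control, and COL3A1 and LUM were at 0 in both.

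Of 8 platelet and megakaryocyte markers 3 were counted and 0 called, at 6.31 CPM summed in the PAX5 library, against 6.61 CPM in the control library. PF4, PPBP and GP1BB were at 0 in both libraries, and GP1BA, ITGA2B and TUBB1 had 43, 18 and 8 counts in the PAX5 library, against 24, 26 and 15 in the control library. Of 6 myeloid markers 3 were counted and 0 called, at 66.7 CPM summed in the PAX5 library, against 132 CPM in the control library. MPO held most of this, with 554 counts in the PAX5 library, against 1138 in the control library, ITGAM had 222 and 278 in PAX5 and control, and CD14, LYZ and FCGR1A had at most 3 counts in either library. CSF1R, described above, had 14 and 41 counts in PAX5 and control. All 3 counted markers had log2 intervals wholly below 0, against 16.8% of all features tested. For MPO the upper bound was -0.997, just short of the call.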

How the data were processed

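RNA was isolated with QIAGEN RNeasy columns and made into libraries by the NEBNext Ultra method, per the labels' protocols. The authors deposited raw counts per Entrez gene with a gene length in bases. Counting used featureCounts on hg19, also named GRCh37, as the submitters' processing notes list. No source used here gives its version, the aligner, the strand setting or the treatment of multiply matching reads. Columns were matched to libraries by the library number that also names each library's file, and all 51404 values agreed between the series table and those files.

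Symbols were matched by Entrez number to RefSeq (GRCh38.p14) for 23696 of 25702 features, and its gene coordinates were used only for gene order and for overlap between genes. Scaling factors were TMM factors (edgeR 4.0.16, R 4.3.3) over features with at least 10 summed counts, 0.9954 for PAX5 and 1.005 for control. Ratios have Clopper-Pearson intervals conditional on the summed count, counts Poisson intervals and pair ratios conditional exact intervals (scipy 1.17.1). With 1 library per group neither edgeR nor DESeq2 can test a gene, so a fixed rule of size was used over the whole table. The rule was checked on simulated libraries with counting error only, so the check says nothing about spread between cultures. Intervals and floors cover counting error only, since PCR copies are not separate molecules. The genes and lists were chosen with earlier results of these data known. Named are the 9 genes, PAX5, all genes of lists of 5 or fewer, of longer lists the genes called and the 3 with the highest mean RPKM, marker genes of other cell types with at least 10 counts, and the 3 features nearest in level to a counted gene. Chromosomal neighbours, markers at or near 0, TEK and genes called only under an alternative were named after their values were seen. Alternatives were scaling by total counts, DESeq2 1.42.0 size factors or upper quartiles, centring on like length, the files of single libraries, other count minimums and other size rules.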

Additional observations from a re-analysis of the deposited data

How the results depend on the processing

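PDGFA stayed called higher under all 10 alternatives, with a log2 ratio between 3.50 and 3.56 under the 3 other scalings, like-length centring and the single-library files. The log2 ratio of VEGFB was -0.012 after like-length centring, against -0.21 without it. With a point ratio at 2-fold in place of the bound, 2 of the 9 genes were higher, PDGFA and PDGFRA (background 4.04%). That rule also put 1 VEGF receptor gene higher (NRP1) and 1 B precursor marker (VPREB1), and put lower 1 class III receptor (CSF1R), 2 processing genes (PLAU, SPARC), 1 other receptor that is also an endothelial marker (TIE1), 1 platelet marker (TUBB1) and 2 myeloid markers (MPO, CSF1R). Of all features tested, the point ratio put 1.73% lower. A bound at 1.5-fold put higher NRP1, 1 signalling gene (PTPRJ) and 2 B precursor markers, and put lower CSF1R, SPARC, TIE1 and, as 2 myeloid markers, MPO and CSF1R. Of all features tested, 2.62% were higher and 0.347% lower by the 1.5-fold bound. With at least 50 counts, or a bound at 4-fold, 0 other growth factors were called, since ANGPT2 dropped out (background 0.98% and 0.517% higher). MPO was called lower under total counts and upper quartiles, as 1 myeloid marker (background 0.0591% and 0.0739% lower). Shares without division by length were 34.0% for VEGFA and 66.0% for VEGFB in the PAX5 library, and 29.1% and 70.9% in the control library, because VEGFB is the shorter gene. Among counted genes alone, PDGFA was 100.0% of the PDGF ligands in the PAX5 library. Like-length centring of the pairs of genes, an alternative chosen after seeing the data, put the ratio of ratios at 1.07 for VEGFA over VEGFB, against 1.26 without it, and at 0.733 for PDGFRB over VEGFB, against 0.904. The other 8 pairs stayed within their intervals. Every other list count, log2 ratio and share moved by less than its interval or by under 1.5 times.

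No paired analysis was possible because each group has 1 library, and for the same reason leaving a library out gives no ratio. Depth limits PDGFRA, PDGFB and the genes at 0. The floor of 3 counts is a limit for a level at 0, and a difference must be larger to be called. The rule needs at least 10 summed counts, and PDGFRA, at 22 counts against 8, was not called. Variation between cultures, and a difference between the 2 lines that existed before doxycycline, cannot be told apart from the cassette.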
